A study of Homo sapiens with 12 samples.

Results

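Integrins and the adhesion molecules of the immunoglobulin superfamily are the receptors by which neural cells hold to the matrix and to each other. The genes described here were chosen by name, with earlier results of these data known, and comprise 38 of the 55765 gene symbols in the count files: 13 integrin alpha subunits, 6 integrin beta subunits, 3 integrin ligands on other cells (VCAM1, ICAM1 and ICAM5), the 4 genes of the L1 family, both NCAM genes, ALCAM and MCAM, 6 contactins and 2 contactin-associated proteins. All 38 were found in every one of the 12 libraries' files.

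The libraries are total RNA of SH-SY5Y, a human neuroblastoma line subcloned from the bone marrow-derived line SK-N-SH, that was driven toward a neuron-like state with all-trans retinoic acid (ATRA) for 7 days. In the co-treatment experiment, hydrogen peroxide (H2O2) and ATRA were given together through the 7 days (3 treated libraries), and in the pre-treatment experiment H2O2 was given 72 hours before ATRA was started (3 treated libraries), each beside 3 control libraries with ATRA and no H2O2. All 4 groups therefore share the line and the ATRA, no group lacks ATRA, and the stated H2O2 concentration is in mM in the deposited design text and in μM in the study's methods, so that no dose is relied on here. The labels do not say that the replicates came from separate cultures, so the p-values measure the spread between these samples, which may be technical.

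An integrin is a pair of 1 alpha and 1 beta chain, and the pair decides what the cell can bind: ITGB1 pairs with most alpha chains, ITGA1 with ITGB1 forms a collagen and laminin receptor, ITGA9 with ITGB1 binds tenascin and related ligands, and ITGA4 with ITGB1 (VLA-4) binds fibronectin and VCAM1. VCAM1 and ICAM1 are cell surface ligands that inflammatory signals induce through NF-kB in many cell types. L1CAM, CHL1, NRCAM and NFASC (the L1 family), the NCAMs and the contactins carry axon growth, bundling and the assembly of axonal domains, and the L1 family is tied inside the cell to ankyrins and through them to spectrin.

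The libraries held 27576276 to 98287391 reads assigned to genes, of which 0.258% to 0.401% fell on the 38 genes. Pre-treatment control replicate 3 stood apart from the other pre-treatment controls: across genes, the chi-square per degree of freedom against them was 613 and 566, where every other pair of replicates gave 27.6 to 167. Reads outside annotated genes amounted to 0.800 and 0.830 per read on a gene in pre-treatment control replicates 1 and 2, to 0.200 in control replicate 3 and to 0.343 to 0.462 in the pre-treated libraries. Small structured RNA made up 1.61% and 2.93% of gene reads in the first pair and 13.3% to 17.6% in the other 4 pre-treatment libraries. Every pre-treatment result is therefore given with all 6 libraries and without control replicate 3, and the part of these differences in the results was not tested.

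The sequences just upstream of VCAM1 and ITGA4, a ligand and the alpha chain of its receptor, are shown because these were the only members whose response differed between the exposure times both with and without pre-treatment control replicate 3. RefSeq places the 250 bases before the start of VCAM1 at chr1:100719492-100719741 on the plus strand, and those before ITGA4 at chr2:181457136-181457385 on the plus strand (build GRCh38.p14). Capitals mark matches, on either strand, to GGG, 2 bases of any kind, T, 1 base of any kind and CCC, the form of NF-kB sites (kB), whose letters were set with the VCAM1 sequence in view.

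VCAM1: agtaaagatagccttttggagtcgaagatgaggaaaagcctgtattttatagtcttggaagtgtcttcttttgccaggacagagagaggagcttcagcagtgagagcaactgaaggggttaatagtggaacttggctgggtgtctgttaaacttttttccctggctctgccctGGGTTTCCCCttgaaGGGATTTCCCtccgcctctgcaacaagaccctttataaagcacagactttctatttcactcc
ITGA4: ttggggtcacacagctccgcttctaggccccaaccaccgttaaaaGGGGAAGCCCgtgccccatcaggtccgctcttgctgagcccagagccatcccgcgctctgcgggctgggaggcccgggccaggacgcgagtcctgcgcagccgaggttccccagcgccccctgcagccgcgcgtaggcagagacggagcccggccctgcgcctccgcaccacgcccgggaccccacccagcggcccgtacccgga

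VCAM1 held 2 matches, GGGTTTCCCC starting 77 bases and GGGATTTCCC starting 62 bases before the start, and ITGA4 held 1, GGGGAAGCCC starting 205 bases before it. A match stood in 6.48% of 35116 windows of the same length upstream of RefSeq genes, and 2 or more in 0.552%. Of the 32 members with a window, 6 held a match in 1 or more of their windows. That count is by gene and cannot be set beside the shares of windows. The 6 also included CNTNAP1 and L1CAM, which are described below with the genes that were lower after pre-treatment, and ITGA10 and ITGA11. The AP-1 letters TGANTCA, read on both strands, stood in 6.57% of windows and, counted by gene, in 1 of the 32 members, NRCAM. The letters describe these windows only and say nothing of which factor was bound.

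Levels between genes were compared as RPKM, read counts scaled to library size and to the length of annotated exon. By the mean of 12 libraries, 8 members were at 10 RPKM or more, 12 between 1 and 10, 11 between 0.1 and 1, and 7 below 0.1. The most abundant immunoglobulin-type genes were NRCAM, an ankyrin-binding axonal molecule (mean 61.6 RPKM, 41.8 to 75.7 over the libraries), ALCAM, a homophilic axon-bundling molecule (46.7, 37.7 to 62.3), and NCAM2 (39.9, 17.9 to 53.9). The leading integrins were ITGB1 (42.3 RPKM, 27.1 to 51.6), ITGA1 (29.3, 12.96 to 36.1) and ITGA9 (10.8, 7.07 to 14.0). The ranges of NRCAM, ALCAM, ITGB1 and NCAM2 overlapped one another, so their order is not fixed by these libraries.

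The integrin repertoire was narrow among the 13 alpha and 6 beta chains chosen. Chains outside that choice, ITGB2, ITGAL and ITGAM among them, are not in the sums given here. ITGA1, ITGA9 and ITGAV, the alpha chain of vitronectin receptors, together made up 81.1% to 87.3% of the summed alpha-chain RPKM in each library, and ITGB1 made up 79.4% to 94.1% of the beta-chain sum. ITGA4 was 0.302% to 0.746% of the alpha-chain sum in the 9 libraries outside the pre-treated group and 1.202% to 2.13% in the 3 pre-treated libraries. At the other end, ITGA8 was listed with 0 counts in 10 libraries and 1 count in each of 2, and CNTN5, ITGA11, ITGA5, CHL1, ITGA10 and CNTN3 also averaged below 0.1 RPKM. The plot of levels shows every library of every gene.

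**Figure D1:**
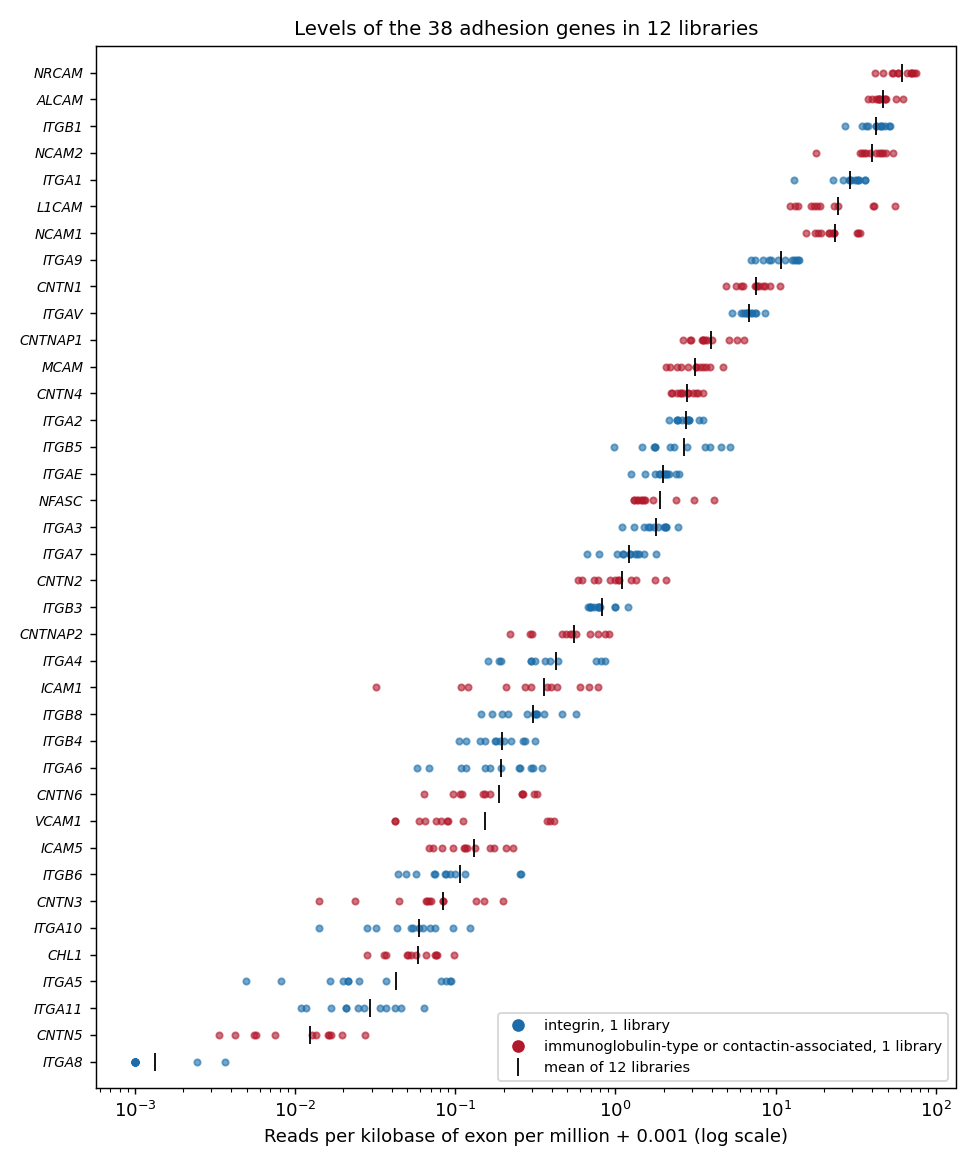
RPKM plus 0.001 on a log axis for each of the 38 genes, ordered by the mean of 12 libraries (black tick), with 1 point per library. Blue points are integrins and red points immunoglobulin-type or contactin-associated genes. NRCAM at the top averaged 61.6 RPKM, ITGA4 0.422 and VCAM1 0.152, and for ITGA4 and VCAM1 the 3 points on the right are the pre-treated libraries.

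The next values are CPM, read counts scaled to library size with TMM factors, which serve comparisons of 1 gene between libraries. Of the 3 most abundant integrins and the 3 most abundant immunoglobulin-type genes, only ITGB1 passed edgeR's quasi-likelihood test in a comparison. NRCAM was at 566, 529 and 559 CPM in the co-treatment controls, 561, 584 and 604 in the co-treated, 434, 376 and 334 in the pre-treatment controls and 462, 425 and 463 in the pre-treated libraries. It was lower in all 6 pre-treatment libraries than in all 6 co-treatment libraries, while its H2O2 response was 0.08 ± 0.12 (log2 fold change ± SE) in co-treatment and 0.24 ± 0.18 in pre-treatment.

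ALCAM was at 344, 406 and 447 CPM in the co-treatment controls against 318, 286 and 305 in the co-treated, and at 270, 316 and 321 in the pre-treatment controls against 346, 349 and 312 in the pre-treated libraries. The co-treated libraries were below all their controls (log2 fold change -0.40 ± 0.13, adjusted p = 0.368 by edgeR's quasi-likelihood test), and the pre-treatment groups overlapped (0.15 ± 0.17, adjusted p = 0.749). ITGA9 was at 85.9, 75.0 and 77.4 CPM in the co-treatment controls, 69.3, 61.6 and 58.4 in the co-treated, 116, 105 and 94.0 in the pre-treatment controls and 114, 111 and 108 in the pre-treated libraries, with adjusted p-values of 0.435 and 0.849 by the same test.

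For ITGA1 and NCAM2 a single library set the spread. ITGA1 was at 551, 532 and 544 CPM in the co-treatment controls, 579, 670 and 602 in the co-treated, 613, 421 and 491 in the pre-treatment controls and 669, 600 and 240 in the pre-treated libraries. NCAM2 was at 349, 324 and 375, then 286, 302 and 294, then 390, 280 and 367, and 446, 404 and 148 in the same order. In both, pre-treated replicate 3 was lower than every other library, and the pre-treatment log2 fold changes were -0.01 ± 0.36 and -0.05 ± 0.38. That library was the lowest of its group for 21 of the 37 members with enough reads and was more than 1.5 times below both other pre-treated libraries for 8 of them (ITGA1, ITGA2, ITGA5, ITGA6, ITGA7, ICAM1, CHL1 and NCAM2). Other libraries came near these counts. Pre-treatment control replicate 3 was the lowest of its group for 20 of 35 members and more than 1.5 times below both others for 8. Co-treatment control replicate 3 was the lowest for 19 of 34 and that far below for 4. These counts were made for the members only. Across all genes, the chi-square per degree of freedom of pre-treated replicate 3 against pre-treated replicates 1 and 2 was 113 and 93.0, beside 27.6 between those replicates.

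The first question of the design is how H2O2 given before ATRA left these genes 7 days later. With all 6 libraries, 1 of the 37 members that passed the filter on low counts was called at an adjusted p below 0.05 (edgeR's quasi-likelihood test), ITGA4, where 0.0242% of all 24743 genes tested were called, all of them higher. An unadjusted p below 0.05 was found for 11 members and for 11.2% of all genes. Without control replicate 3, 14 of 37 were called, 8 higher and 6 lower, where 26.1% of 26350 genes were called, 13.2% higher and 12.8% lower. The median log2 fold change of the members was 0.11 beside 0.01 over all genes. With the added demand of a log2 fold change beyond 1 in size, 5 members were higher and 4 lower, where 2.98% and 8.23% of all genes were. ITGA8 did not pass the filter. With upper-quartile scaling in place of TMM the split of the members was 4 higher and 6 lower and that of all genes 2186 and 4088, in place of 3489 and 3382, and with library size alone they were 4 and 7, and 1384 and 4892. These scalings moved the median of all genes to -0.10 and -0.21.

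**Figure D2:**
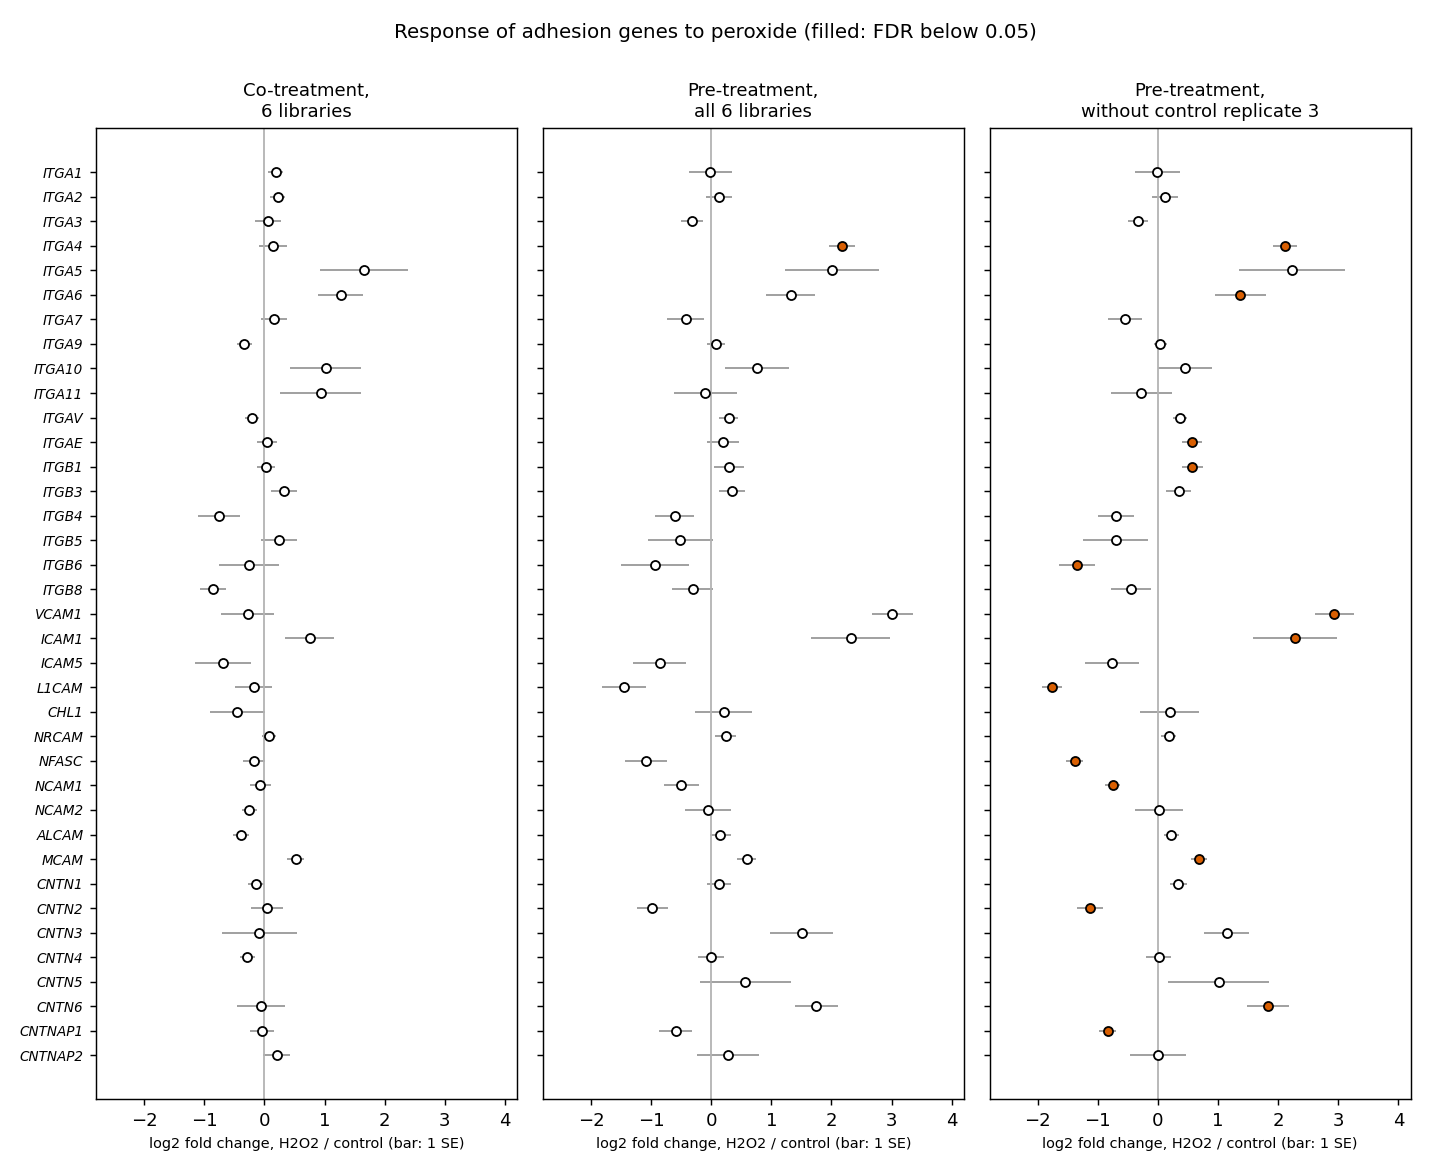
Log2 fold change of H2O2 over control for the 37 members that could be tested in pre-treatment, with bars of 1 SE, in co-treatment (36 genes), pre-treatment with 6 libraries and pre-treatment without control replicate 3. Filled points passed an adjusted p of 0.05: none in the left panel, ITGA4 in the middle panel, and 8 higher and 6 lower genes in the right panel.

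ITGA4, the alpha chain of the receptor for VCAM1 and fibronectin, rose after pre-treatment. It was at 8.67, 8.08 and 9.17 CPM in the pre-treated libraries (mean 8.64 ± 0.543, SD, n = 3) and at 2.06, 1.99 and 1.70 in the pre-treatment controls (1.92 ± 0.193, n = 3). The co-treatment controls were at 4.16, 3.17 and 3.32 CPM and the co-treated libraries at 3.16, 4.68 and 3.85. All 3 pre-treated libraries were above all 9 others, control replicate 3 was with the other pre-treatment controls, and the co-treatment groups overlapped. The log2 fold change was 2.17 ± 0.22 (adjusted p = 0.0442 by edgeR's quasi-likelihood test) with all 6 libraries and 2.12 ± 0.20 (adjusted p = 0.000980) without control replicate 3, and 0.14 ± 0.23 (adjusted p = 0.935) in co-treatment. The 6-library call was lost when any single library other than control replicate 3 was left out, with log2 fold changes of 2.12 to 2.24 and adjusted p-values of 0.178 to 0.444 in edgeR, whereas the 5-library call was kept without each library in turn (largest adjusted p = 0.0108). In bulk RNA, more cells that express a gene and more of its RNA per cell cannot be told apart.

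ITGA4 lies at chr2:182321929-182403667 on the plus strand of GRCh37, and 26.4% of its annotated exon bases are also exon of CERKL on the opposite strand. CERKL was at 1.95, 1.66 and 2.08 CPM in the pre-treated libraries, 0.444, 0.386 and 0.463 in the pre-treatment controls and 0.437 to 1.03 in the co-treatment libraries. CERKL was thus also highest in the 3 pre-treated libraries. Whether the counting used strand is not given in the sources used here, and without it reads of the shared stretch cannot be told apart.

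VCAM1, the cell surface ligand of ITGA4 with ITGB1, was sparsely counted outside the pre-treated group, with 14 to 30 reads in each of the 9 other libraries and 238, 152 and 187 reads in the pre-treated. In CPM it was at 2.49, 2.25 and 2.36 in the pre-treated libraries (2.37 ± 0.118, n = 3) and 0.248, 0.386 and 0.247 in the pre-treatment controls (0.294 ± 0.0799, n = 3), with 0.449, 0.535 and 0.670 in the co-treatment controls and 0.533, 0.484 and 0.350 in the co-treated. The 3 pre-treated libraries were far above all others and close to one another, and control replicate 3 held 16 reads beside 14 and 18 in the other pre-treatment controls. The log2 fold change was 3.01 ± 0.35 with all 6 libraries, where the adjusted p of 0.0696 by edgeR's quasi-likelihood test missed the threshold, and 2.93 ± 0.33 (adjusted p = 0.00126) without control replicate 3. With the same 6 libraries the adjusted p was 1.33e-08 by edgeR's exact test, 2.34e-12 by DESeq2, 0.00217 with no filter and 0.00164 in 1 fit over both experiments, but 0.117 by limma-voom and 0.550 with a replicate block. In co-treatment it was -0.28 ± 0.44 (adjusted p = 0.935). VCAM1 lies at chr1:101185298-101204601 on the plus strand of GRCh37 and shares no exon base with another annotated gene.

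**Figure D3:**
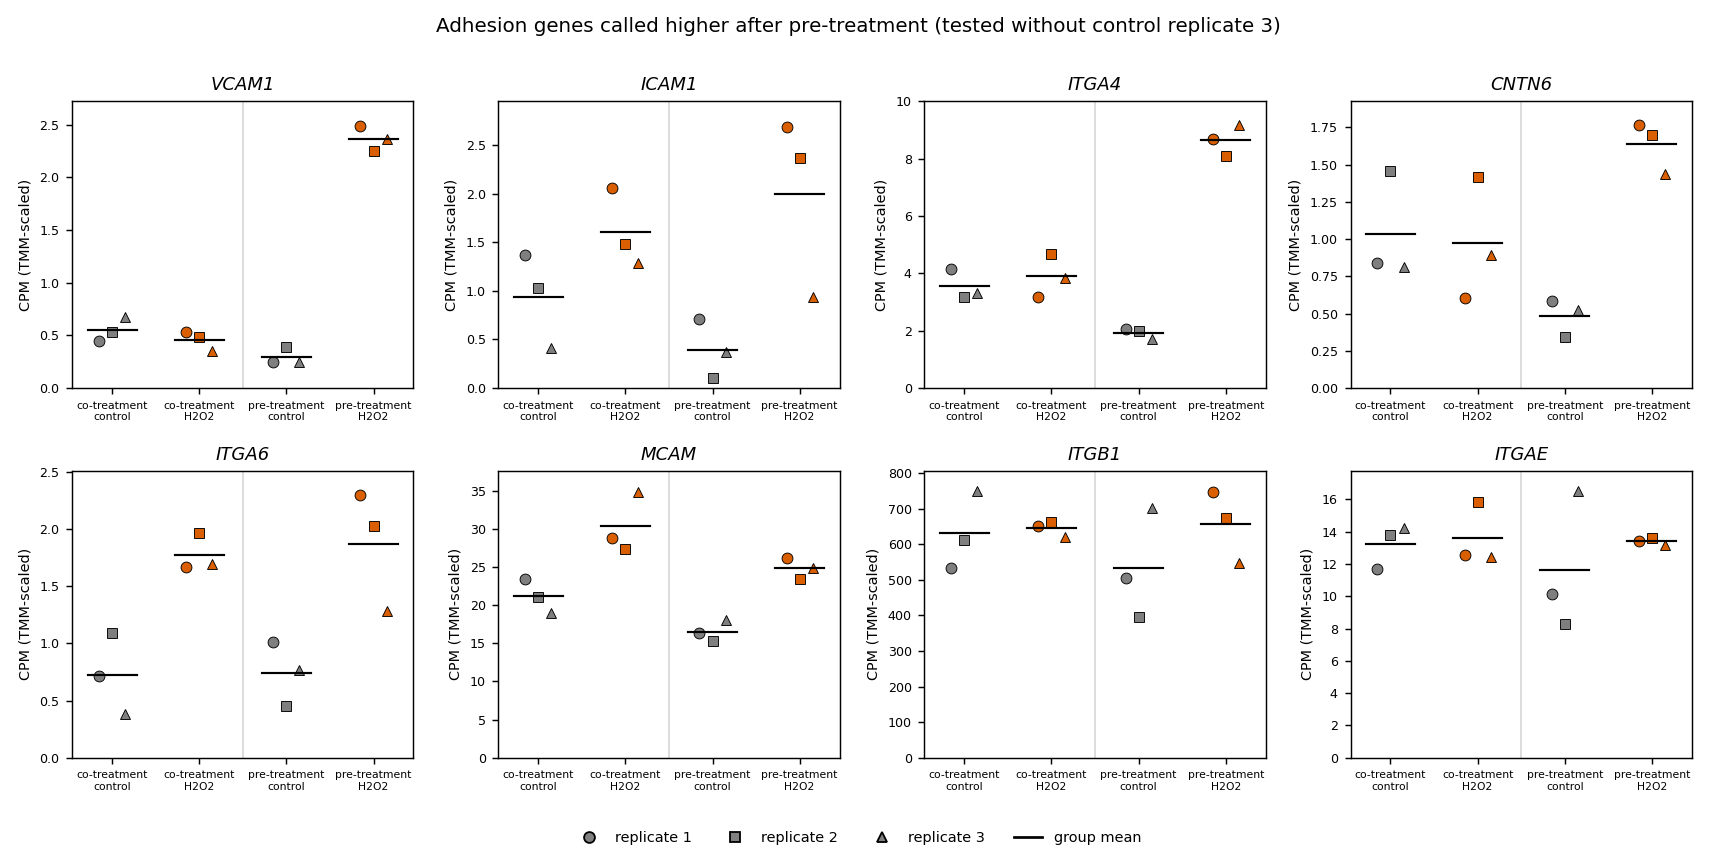
CPM in each of the 12 libraries for the 8 genes called higher after pre-treatment without control replicate 3. Circles, squares and triangles are replicates 1, 2 and 3, grey points are controls, orange points are H2O2-treated, and bars are group means of 3 libraries. For VCAM1 and ITGA4 the pre-treated points lie above all others, while for ITGB1 and ITGAE the pre-treatment control triangle lies above or among the treated points.

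ICAM1, a ligand of leukocyte integrins, was at 2.69, 2.37 and 0.934 CPM in the pre-treated libraries and at 0.710, 0.107 and 0.370 in the pre-treatment controls. The groups did not overlap, but pre-treated replicate 3 was nearer to the highest control than to the other treated libraries, and the co-treatment values of 1.37, 1.03 and 0.408 in controls and 2.06, 1.48 and 1.28 in treated libraries overlapped. The log2 fold change was 2.27 ± 0.70 (adjusted p = 0.0443, edgeR's quasi-likelihood test) without control replicate 3, 2.32 ± 0.66 (adjusted p = 0.320) with it and 0.75 ± 0.41 (adjusted p = 0.713) in co-treatment. Of its exon bases, 25.4% are shared with transcripts of the opposite strand.

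ITGA6, a laminin receptor chain, was at 2.30, 2.03 and 1.29 CPM in the pre-treated libraries, 1.01, 0.450 and 0.771 in the pre-treatment controls, 1.67, 1.97 and 1.69 in the co-treated and 0.714, 1.09 and 0.379 in the co-treatment controls. In both experiments all treated libraries were above all controls. Its log2 fold change was 1.37 ± 0.42 (adjusted p = 0.0440, edgeR) without control replicate 3, 1.32 ± 0.41 (adjusted p = 0.320) with it and 1.27 ± 0.37 (adjusted p = 0.250) in co-treatment, and the difference between the exposure times was 0.02 ± 0.56 on the log2 scale over 12 libraries.

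MCAM, an endothelial and melanoma adhesion molecule also found on neural crest derivatives, was at 26.2, 23.5 and 24.9 CPM in the pre-treated libraries against 16.3, 15.3 and 18.0 in their controls, and at 28.9, 27.4 and 34.9 in the co-treated against 23.5, 21.1 and 18.9. It too was higher in every treated library than in every control of the same experiment. The log2 fold changes were 0.68 ± 0.14 (adjusted p = 0.0105, edgeR) without control replicate 3, 0.59 ± 0.16 (adjusted p = 0.320) with it and 0.52 ± 0.14 (adjusted p = 0.200) in co-treatment.

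CNTN6, a contactin of developing neurons, was at 1.77, 1.70 and 1.44 CPM in the pre-treated libraries and 0.585, 0.343 and 0.524 in their controls, while the co-treatment controls of 0.836, 1.45 and 0.816 overlapped the co-treated libraries of 0.604, 1.42 and 0.895. The pre-treatment groups did not overlap (log2 fold change 1.83 ± 0.35, adjusted p = 0.00793 by edgeR without control replicate 3, and 1.75 ± 0.36, adjusted p = 0.312 with it). The co-treatment log2 fold change was -0.06 ± 0.40 (adjusted p = 0.991, edgeR).

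ITGB1, the common beta chain, and ITGAE, which pairs with a leukocyte beta chain, were called higher without control replicate 3, which was itself high for both. ITGB1 was at 746, 673 and 548 CPM in the pre-treated libraries and 505, 394 and 701 in the pre-treatment controls, with 534, 612 and 751 in the co-treatment controls and 650, 662 and 621 in the co-treated. ITGAE was at 13.4, 13.6 and 13.2 CPM against 10.1, 8.27 and 16.5 in pre-treatment, and at 12.6, 15.8 and 12.4 in the co-treated against 11.7, 13.8 and 14.2 in their controls. For both genes control replicate 3 lay above at least 1 treated library, and the groups overlapped. The log2 fold changes were 0.57 ± 0.17 for each (adjusted p = 0.0418 and 0.0361, edgeR) without that library and 0.30 ± 0.25 and 0.20 ± 0.27 (adjusted p = 0.680 and 0.789) with it. In co-treatment they were 0.03 ± 0.14 and 0.04 ± 0.16 (adjusted p = 0.988 and 0.979).

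Several of these calls rested on single libraries. Without pre-treatment control replicate 2, without pre-treated replicate 1 or without pre-treated replicate 2, ICAM1 (adjusted p = 0.183, 0.109 and 0.0967 in edgeR), ITGA6 (0.232, 0.124 and 0.103), ITGAE (0.215, 0.111 and 0.107) and ITGB1 (0.241, 0.132 and 0.109) were not called. MCAM was not called without control replicate 2 (adjusted p = 0.0819, edgeR) or treated replicate 1 (0.0530), and CNTN6 was not called without control replicate 2 (0.0648). ITGA4 and VCAM1 were called without each of the 5 libraries in turn. The ICAM1 log2 fold change ranged from 1.52 without control replicate 2 to 4.25 without control replicate 1.

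The 6 genes called lower after pre-treatment without control replicate 3 were L1CAM, NFASC, CNTN2, CNTNAP1, NCAM1 and ITGB6. L1CAM, which drives axon growth and bundling, was at 89.6, 122 and 96.3 CPM in the pre-treated libraries (102 ± 16.8, n = 3) and at 301, 406 and 132 in the pre-treatment controls. The co-treatment controls were at 296, 138 and 100 CPM and the co-treated libraries at 167, 127 and 179. Pre-treatment control replicates 1 and 2 were high, as was co-treatment control replicate 1, and control replicate 3 was near the treated libraries without overlapping them. The log2 fold change was -1.76 ± 0.17 (adjusted p = 0.000980 by edgeR's quasi-likelihood test) without control replicate 3 and -1.45 ± 0.37 (adjusted p = 0.320) with it, and -0.18 ± 0.31 (adjusted p = 0.940) in co-treatment. L1CAM lies at chrX:153126969-153151627 on the minus strand of GRCh37 and shares 6.04% of its exon bases with another annotated gene of the same strand.

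NFASC, the neurofascin of nodes and axon initial segments, was at 27.8, 27.9 and 30.8 CPM in the pre-treated libraries and 65.5, 88.3 and 29.0 in the pre-treatment controls, with 51.1, 32.3 and 29.5 in the co-treatment controls and 32.3, 31.2 and 36.6 in the co-treated. Pre-treatment control replicates 1 and 2 and co-treatment control replicate 1 were the 3 highest libraries, and control replicate 3 lay within the range of the treated libraries. Its log2 fold change was -1.39 ± 0.15 (adjusted p = 0.00107, edgeR) without control replicate 3, -1.08 ± 0.35 (adjusted p = 0.328) with it and -0.18 ± 0.19 (adjusted p = 0.892) in co-treatment. NFASC lies at chr1:204797779-204991950 on the plus strand of GRCh37. The other L1 family genes, NRCAM (0.18 ± 0.12) and CHL1 (0.20 ± 0.49), were not called.

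CNTN2, the axonal contactin also called TAG-1, and CNTNAP1, the partner of contactin at paranodes, were both highest in pre-treatment control replicates 1 and 2. CNTN2 was at 16.4, 18.5 and 10.9 CPM in the pre-treated libraries against 36.7, 31.4 and 22.3 in their controls, and at 17.6, 13.1 and 18.7 in the co-treated against 23.8, 13.8 and 10.3. CNTNAP1 was at 22.2, 22.0 and 18.5 CPM against 36.0, 39.9 and 18.8 in pre-treatment, and at 23.0, 22.2 and 25.3 against 32.3, 23.5 and 16.7 in co-treatment. For CNTN2 all 3 pre-treatment controls were above all treated libraries, and for CNTNAP1 control replicate 3 lay among the treated. The log2 fold changes without control replicate 3 were -1.13 ± 0.21 (adjusted p = 0.00807, edgeR) and -0.83 ± 0.14 (adjusted p = 0.00534), and with it -0.98 ± 0.26 (adjusted p = 0.320) and -0.59 ± 0.27 (adjusted p = 0.470). In co-treatment they were 0.04 ± 0.26 and -0.04 ± 0.20 (adjusted p = 0.990 and 0.984). Of the exon bases of CNTNAP1, 13.1% are shared with genes of the opposite strand.

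NCAM1, the homophilic neural cell adhesion molecule, was at 243, 223 and 272 CPM in the pre-treated libraries and 426, 417 and 196 in the pre-treatment controls, with 406, 235 and 273 in the co-treatment controls and 285, 292 and 296 in the co-treated. Control replicate 3 was the lowest of all 12 libraries, so the pre-treatment groups overlapped. The log2 fold change was -0.75 ± 0.12 (adjusted p = 0.00489, edgeR) without control replicate 3, -0.49 ± 0.29 (adjusted p = 0.560) with it and -0.07 ± 0.18 (adjusted p = 0.970) in co-treatment.

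ITGB6, a chain of a receptor that activates latent TGF-beta, was the 1 integrin called lower. It shares 16.7% of its exon bases with another annotated gene of the same strand. It was at 0.501, 0.533 and 0.657 CPM in the pre-treated libraries, 1.45, 1.48 and 0.324 in the pre-treatment controls, 0.571, 0.278 and 0.495 in the co-treatment controls and 0.249, 0.420 and 0.428 in the co-treated. Pre-treatment control replicates 1 and 2 were above all 10 other libraries, and control replicate 3 was below all treated libraries of its experiment. The log2 fold change was -1.35 ± 0.30 (adjusted p = 0.0145, edgeR) without control replicate 3, -0.94 ± 0.56 (adjusted p = 0.565) with it and -0.26 ± 0.50 (adjusted p = 0.954) in co-treatment. Its call was lost without either control (adjusted p = 0.0584 without replicate 1 and 0.0865 without replicate 2) and without pre-treated replicate 1 (0.0571) or 2 (0.0513), and that of CNTNAP1 without control replicate 2 (0.0531). L1CAM, NFASC, CNTN2 and NCAM1 were called without each of the 5 libraries in turn.

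**Figure D4:**
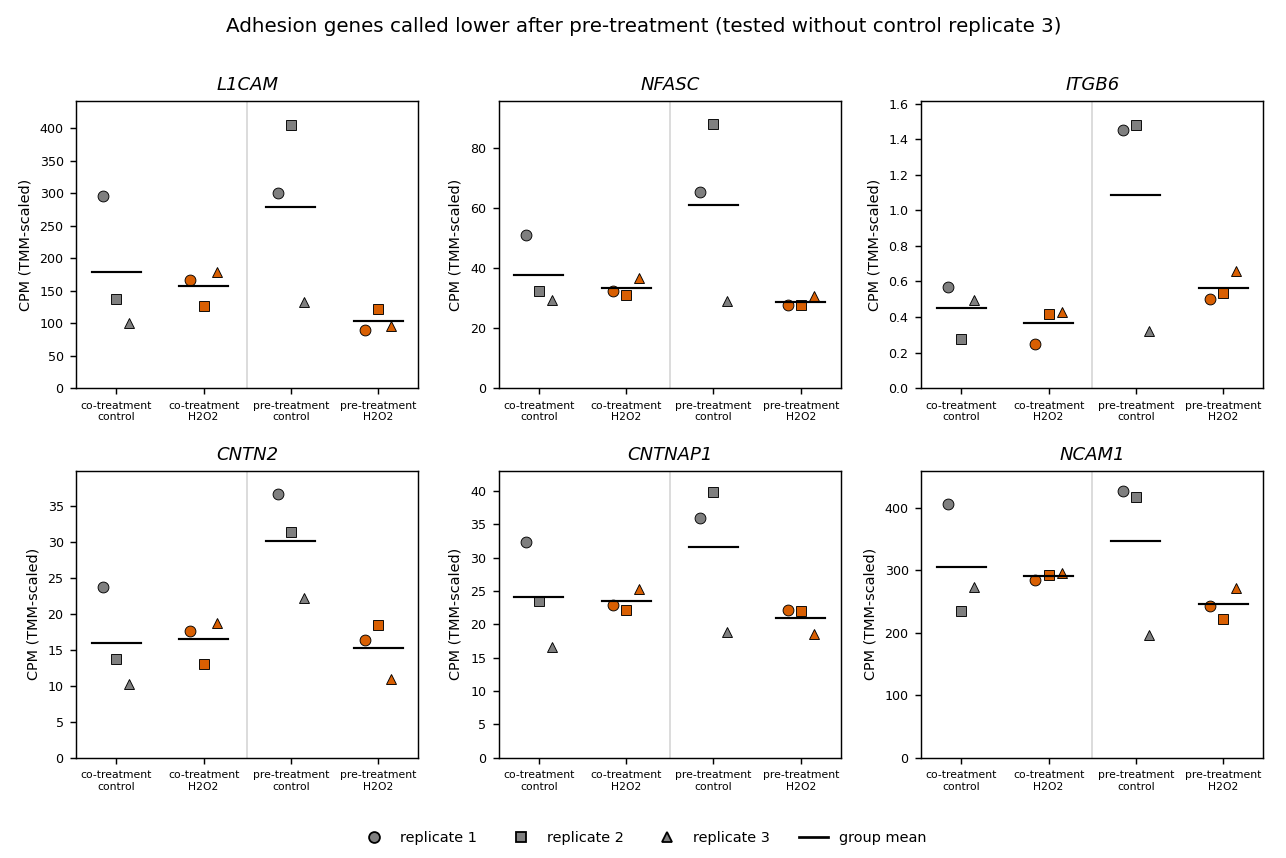
CPM in each of the 12 libraries for the 6 genes called lower after pre-treatment without control replicate 3, with circles, squares and triangles for replicates 1, 2 and 3, grey for controls, orange for H2O2-treated libraries and bars for means of 3 libraries. The 2 high grey points in each pre-treatment column are control replicates 1 and 2, and the grey triangle, control replicate 3, is the lowest control point.

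Control replicate 3 thus divided the called members by direction, which was measured for the members only. Over all genes, 6 were called higher and 0 lower with that library, and 3489 and 3382 without it. On log2(CPM + 0.1), control replicate 3 was nearer to the treated mean than to that of the other 2 controls for 6 of the 6 lower members. Of the 8 higher members it was so for only 2 (ITGB1 and ITGAE). For VCAM1, ITGA4, ICAM1, ITGA6, MCAM and CNTN6 it was nearer to the controls. The reads outside genes and the small RNA share given above also separated pre-treatment control replicates 1 and 2 from the other 4 pre-treatment libraries, and their part in those genes was not tested.

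The second question is how the same genes stood when H2O2 was present through differentiation. In co-treatment, 0 of the 36 members tested were called by edgeR's quasi-likelihood test, where 0.598% of all 22089 genes were called. An unadjusted p below 0.05 was found for 7 members and for 8.15% of all genes, limma-voom also called 0, and edgeR's exact test and DESeq2 called 1 each, ITGB8. The fitted log2 fold changes were above 0 for 18 members and below 0 for 18, with a median of -0.0079 beside -0.00095 over all genes. ITGA8 and CNTN5 did not pass the filter.

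ITGB8, which with ITGAV activates latent TGF-beta, was at 2.95, 2.55 and 2.18 CPM in the co-treated libraries and 4.79, 4.79 and 4.25 in their controls, and at 3.23, 4.88 and 6.97 in the pre-treated against 5.43, 8.57 and 4.69. The co-treatment groups were well apart and the pre-treatment groups overlapped. The co-treatment log2 fold change was -0.86 ± 0.21 (adjusted p = 0.144 by edgeR's quasi-likelihood test, 0.0422 by its exact test and 0.0217 by DESeq2, and up to 0.740 over the alternatives).

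The third question is whether the response differed between the exposure times, which was tested as the pre-treatment log2 fold change minus the co-treatment one. The experiments also differed in the length of the exposure, in the time from its end to harvest and in their controls. The timing of H2O2 cannot be told apart from these. Over all 12 libraries 2 of 36 members were called, VCAM1 (3.26 ± 0.47, adjusted p = 0.0353 by edgeR's quasi-likelihood test) and ITGA4 (2.01 ± 0.29, adjusted p = 0.0385), where 0.0287% of 24407 genes were called, 0.0246% higher and 0.0041% lower. Both responses were larger in pre-treatment, where all 3 pre-treated libraries exceeded all 3 controls. Without any single library other than pre-treatment control replicates 2 and 3, neither gene was called, with adjusted p-values up to 0.166, and without control replicate 2 only VCAM1 was. The 2 differences stayed between 3.11 and 3.53 for VCAM1 and between 1.92 and 2.17 for ITGA4 in those fits.

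Without pre-treatment control replicate 3, 4 of 36 members were called, where 8.02% of 25668 genes were called, 3.32% higher and 4.7% lower. VCAM1 (3.15 ± 0.49, adjusted p = 0.00682, edgeR) and ITGA4 (1.92 ± 0.30, adjusted p = 0.00706) again responded more in pre-treatment. L1CAM (-1.64 ± 0.44, adjusted p = 0.0383) and NFASC (-1.27 ± 0.27, adjusted p = 0.0169) were lowered more in pre-treatment. With TMM computed without small RNA genes, 5 members were called higher and 2 lower, where 1206 of all genes were higher and 1151 lower, and with library size alone 2 higher and 4 lower, where the counts of all genes were 329 and 1784. In place of these the TMM scaling of all genes gave 2 and 2 members and 852 and 1206 genes. VCAM1 and ITGA4 were called without each library in turn (largest adjusted p = 0.0327 and 0.0357, edgeR).

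The L1CAM difference was not called without any of 8 libraries, with adjusted p-values in edgeR of 0.102 and 0.0646 without co-treatment control replicates 2 and 3, 0.0654 and 0.0893 without co-treated replicates 1 and 3, 0.0565 and 0.159 without pre-treatment control replicates 1 and 2, and 0.0882 and 0.0505 without pre-treated replicates 1 and 3. Without co-treatment control replicate 1, the library whose L1CAM level was near those of pre-treatment control replicates 1 and 2, it was -2.22. The NFASC difference was not called without co-treatment control replicate 2 (0.0606) or pre-treatment control replicate 2 (0.1102). With control replicate 3 the differences were -1.30 ± 0.57 (adjusted p = 0.549) and -0.94 ± 0.44 (adjusted p = 0.561).

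The proteins that work with these receptors were taken as lists chosen with earlier results known. Of 24 adaptors and focal adhesion genes, which link integrins to actin, 22 were tested, and 3 were higher and 11 lower after pre-treatment without control replicate 3, where 13.2% of all genes were higher and 12.8% lower (median log2 fold change -0.46 beside 0.01 over all genes). The lower genes were led by TLN1 (talin, which switches integrins on), at 214, 221 and 221 CPM in the pre-treated libraries against 480, 583 and 281 in the controls (-1.25 ± 0.12, adjusted p = 0.000985, edgeR), and by TNS1 (tensin, -1.90 ± 0.21) and the kinase SRC (-1.45 ± 0.18). All 3 had control replicate 3 below the other controls. FERMT1, CRK and FERMT2 were higher (2.19 ± 0.51, 0.42 ± 0.12 and 0.39 ± 0.12). The count of higher and lower genes fell to 0 and 4 without control replicate 2, to 1 and 7 without pre-treated replicate 1 and to 1 and 8 without pre-treated replicate 2, and without control replicate 1 none was higher and 10 were lower.

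With all 6 pre-treatment libraries 0 of the 22 were called (12 at an unadjusted p below 0.05, 4 by edgeR's exact test, 3 by DESeq2 and 0 by limma-voom), and in co-treatment 0 (1 at an unadjusted p below 0.05 and 0 by the 3 other tools). Over 11 libraries, TLN1 (-1.26 ± 0.25), SRC (-1.38 ± 0.26) and TNS1 (-1.66 ± 0.48) also differed between the exposure times. They were 3 of 22 tested, where 8.02% of all genes were called, 3.32% higher and 4.7% lower. For fits without 1 library the calls over all genes are not given here, so shifts of the count are no result about the list alone. Without pre-treatment control replicate 2 none of the list differed, without co-treatment control replicate 2 there was 1, and without co-treatment control replicate 1 there were 10.

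Among 12 ankyrin, spectrin and node genes, the cytoskeletal partners of the L1 family, 9 were tested and 6 were lower after pre-treatment without control replicate 3, with none higher, where 12.8% of all genes were lower and 13.2% higher (median log2 fold change -0.73 beside 0.01). ANK2, a neuronal ankyrin, was at 248, 259 and 255 CPM in the pre-treated libraries against 432, 438 and 179 (-0.75 ± 0.11, adjusted p = 0.00301, edgeR), and SPTAN1 (alpha spectrin) and ANK3 (ankyrin G) changed by -0.64 ± 0.12 and -1.25 ± 0.23. Control replicate 3 was below all treated libraries for ANK2, as it was for NCAM1. Without control replicate 2 the count was 1, and with all 6 libraries and in co-treatment it was 0 (1 and 0 at an unadjusted p below 0.05, and 0 by the exact test, DESeq2 and limma-voom). The same 3 genes differed between the exposure times over 11 libraries (-0.83 ± 0.22, -0.68 ± 0.19 and -1.38 ± 0.35). They were 3 of 9 tested, where 8.02% of all genes were called. Without co-treatment control replicate 1 there were 6, and without co-treated replicate 1 or 2 or pre-treated replicate 2 there was 1. None differed without co-treatment control replicate 2 or 3, co-treated replicate 3 or pre-treated replicate 1. The calls over all genes in these fits are not given here, so the shifts are no result about the list alone.

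Of 12 matrix ligands of integrins, 10 were tested without control replicate 3, and 1 was higher and 1 lower, where 13.2% and 12.8% of all genes were. TNC (tenascin C, a ligand of ITGA9) was lower, at 4.37, 5.09 and 8.46 CPM against 9.76, 15.6 and 5.94 (-1.06 ± 0.31, adjusted p = 0.0370, edgeR), and CTGF, now named CCN2, was called higher at 0.345, 0.355 and 0.114 CPM against 0.0177, 0 and 0. CTGF rested on 1 read in the controls. It passed the filter on low counts through pre-treated libraries alone and was not tested with all 6 libraries. The count of 1 higher gene is therefore no support for a rise in this list. Neither was called without control replicate 2, pre-treated replicate 1 or pre-treated replicate 2, and CTGF was not called without control replicate 1. The edgeR quasi-likelihood test called 0 of the list in co-treatment (6 at an unadjusted p below 0.05, 1 by the exact test, 3 by DESeq2, 0 by limma-voom) and 0 in pre-treatment with all 6 libraries (1 at an unadjusted p below 0.05, 0 by the other 3 tools).

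Of 12 NF-kB response genes, a list set beside VCAM1 and ICAM1, 8 were tested and 3 rose after pre-treatment without control replicate 3, with 0 lower, where 13.2% of all genes were higher and 12.8% lower. CCL2, a monocyte chemokine, was at 19.98, 16.0 and 7.35 CPM in the pre-treated libraries against 2.24, 1.46 and 3.55 (2.99 ± 0.44, adjusted p = 0.00349, edgeR), TRAF1 changed by 1.55 ± 0.31, and NFKBIA, which encodes an inhibitor of NF-kB, by 0.87 ± 0.14. Control replicate 3 was with the controls for CCL2 and TRAF1 but, at 33.2 CPM, above all treated libraries for NFKBIA. CCL2 also rose in co-treatment, at 13.3, 13.8 and 13.7 CPM against 7.91, 4.28 and 5.42 (1.21 ± 0.21, adjusted p = 0.0254, edgeR), a call that was lost without any single library other than co-treatment control replicate 1. In pre-treatment with all 6 libraries 0 of 7 were called (3 at an unadjusted p below 0.05, 2 by the exact test, 3 by DESeq2, 0 by limma-voom). Between the exposure times, 1 of the 7 genes tested over 11 libraries was called, where 8.02% of all genes were. Over 11 libraries CCL2 differed between the exposure times (1.72 ± 0.48, adjusted p = 0.0424, edgeR), and no gene of the list did without any 1 of 9 of those libraries, the exceptions being co-treatment control replicate 1 and pre-treated replicate 3.

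VCAM1, ITGA4 and ICAM1 are also genes of endothelial cells and leukocytes, so the marker lists of other cell types were measured in the same libraries. The 4 endothelial markers measured summed to 0.429 to 0.752 CPM in the pre-treated libraries, 0.343 to 0.663 in their controls and 0.107 to 0.662 in co-treatment. CDH5, which defines endothelium, was at 0 in the 9 libraries outside the pre-treated group and at 0.0253 to 0.0418 in the pre-treated. These are a few reads, as 1 read was 0.0104 CPM in pre-treated replicate 1. The pre-treated libraries held 68374246 to 98287391 reads on genes, more than any other except pre-treatment control replicate 3 (76140104). The 7 leukocyte markers summed to 1.35 to 1.58 CPM in the pre-treated libraries, 1.13 to 2.57 in their controls and 0.807 to 2.61 in co-treatment, with PTPRC at 0.157, 0.192 and 0.177 in the pre-treated libraries and up to 0.706 elsewhere. The part of these markers in the results was not tested.

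The 7 noradrenergic neuroblast markers of the labelled cell type summed to 1261 to 1630 CPM in the pre-treated libraries, below the 1988 to 3017 of their controls, and to 1524 to 2089 in the co-treated against 1983 to 2879. TH was near 0 in all 12 libraries (0.0104 to 0.258). Without control replicate 3, 4 of the 6 tested were lower after pre-treatment, among them DBH (-1.72 ± 0.45), GATA3 (-1.44 ± 0.31) and GATA2 (-0.92 ± 0.14), and 1 was higher, ISL1 (0.37 ± 0.12, not called by the exact test or DESeq2), where 12.8% and 13.2% of all genes were. The lower count was 1 without control replicate 2 and 2 without pre-treated replicate 1, and the list had 0 calls by edgeR's quasi-likelihood test over all 6 pre-treatment libraries (3 at an unadjusted p below 0.05, 1 by the exact test, 3 by DESeq2 and 0 by limma-voom). Their part in the adhesion gene results was not tested. The 6 neuronal markers summed to 2669 to 2809 CPM in the pre-treated libraries, 2242 to 2296 in pre-treatment control replicates 1 and 2 and 3231 in control replicate 3. In co-treatment the sums were 2440 to 2770 CPM against 2670 to 3023 in the controls. Without control replicate 3, STMN2 was called higher (0.83 ± 0.15) and MAPT lower (-0.94 ± 0.21), of 6 tested. With all 6 pre-treatment libraries 0 were called. The 6 Schwann or glial markers summed to 5.43 to 8.44 CPM. The 6 epithelial markers summed to 7.45 to 13.4 CPM in the pre-treated libraries against 2.44 to 4.38 in their controls. In co-treatment the sums were 8.96 to 11.1 CPM against 7.14 to 8.30, so the pre-treatment controls were the low group. Of 5 tested without control replicate 3, 1 was called higher, where 13.2% of all genes were. That was KRT18 (3.76 ± 0.45, adjusted p = 0.00159, edgeR), and with all 6 libraries 0 were called. KRT5 was at 0 in all groups but the pre-treated, whose libraries were among the deepest.

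Single mesenchymal and fibroblast markers moved with the higher genes. VIM was at 23.0, 19.6 and 21.9 CPM in the pre-treated libraries against 3.00, 3.97 and 5.06 (2.42 ± 0.24, adjusted p = 0.0442, edgeR, 6 libraries), and COL3A1 at 112, 86.9 and 85.9 against 21.7, 12.97 and 17.9 (2.44 ± 0.24, adjusted p = 0.0442). The summed lists did not follow them: the 8 mesenchymal markers summed to 444 to 593 CPM in the pre-treated libraries against 631 to 968 in their controls, and the 6 fibroblast markers to 173 to 227 against 147 to 197. Without control replicate 3, 3 of 7 mesenchymal markers tested were higher and 1 lower, and 2 of 6 fibroblast markers were higher and 1 lower, where 13.2% of all genes were higher and 12.8% lower. The higher mesenchymal markers were YAP1 (3.11 ± 0.81), VIM (2.66 ± 0.20) and CD44 (1.11 ± 0.31) and the lower 1 was NOTCH2 (-1.03 ± 0.26), and the fibroblast markers called were DCN (2.95 ± 0.64) and COL3A1 (2.48 ± 0.24), which were higher, and PDGFRB (-0.70 ± 0.14), which was lower. The higher counts of the 2 lists were 1 and 1 without control replicate 2 and 1 and 2 without pre-treated replicate 1. VIM was also higher in co-treatment (1.16 ± 0.21, adjusted p = 0.0272, edgeR), where VCAM1 and ITGA4 were not called. The part of these markers in the adhesion gene results was not tested.

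The remaining members were not called in any comparison: ITGA2, ITGA3, ITGA5, ITGA7, ITGA10, ITGA11, ITGAV, ITGB3, ITGB4, ITGB5, ICAM5, CHL1, CNTN1, CNTN3, CNTN4, CNTN5 and CNTNAP2. In pre-treatment without control replicate 3 their log2 fold changes lay between -0.77 (ICAM5) and 2.23. The highest were those of ITGA5, the fibronectin receptor chain (2.23 ± 0.88, adjusted p = 0.0948, edgeR), and CNTN3 (1.14 ± 0.38, adjusted p = 0.0546), both below 0.1 RPKM on average and chosen for mention after their values were seen. ITGA5 was at 0.679, 0.592 and 0.114 CPM in the pre-treated libraries against 0.0532, 0.1501 and 0.139, so that replicate 3 lay within the control range, whereas CNTN3 was at 0.815, 0.725 and 1.07 against 0.355, 0.450 and 0.123, without overlap.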

How the data were processed

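Total RNA of SH-SY5Y cells was depleted of ribosomal RNA and sequenced from a strand-marking kit. The deposited files hold the authors' raw counts, the number of reads per gene symbol and library, not normalized. Per the submitters' processing notes, the tools were FastQC 0.11.8, cutadapt 2.10, HISAT2 2.1.0 and HTSeq 0.7.2 with build hg19, and the strand setting and annotation version are not given in the sources used here. Multi-mapped reads are not counted per gene, so genes with close copies can be undercounted.

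From these counts, edgeR 4.0.16 in R 4.3.3 was run with TMM scaling and the quasi-likelihood test (glmQLFit, glmQLFTest) on all genes, adjusted by Benjamini and Hochberg over all genes tested, and a gene was called at an adjusted p below 0.05. The filter on low counts asked that 3 or more libraries (2 without pre-treatment control replicate 3) reach a CPM worth 5 reads at the depth of the shallowest library. Rows that name no gene were left out, and the authors' own comparison columns were not used. Groups came from the sample titles. The interaction of experiment and treatment tested differences between the exposure times, which were also separate experiments. RPKM used the union of annotated exons on GRCh37, and all 38 genes matched 1 annotated gene, as did 59.5% of all symbols. No 2 replicates of the same group agreed within sampling noise. The scripts were tested on simulated data.

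The members and lists were chosen with earlier results of these data known. Values were named for members called in any comparison and for the 3 most abundant integrins and 3 most abundant immunoglobulin-type genes, and from each partner list for up to 3 genes with the smallest adjusted p. Alternatives were edgeR's exact test, DESeq2 1.42.0, limma-voom (limma 3.58.1), other scalings, other filters, a fold threshold, a replicate block, 1 fit over both experiments and leaving out each library. 1 marker gene of the lists is not reported here.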

Additional observations from a re-analysis of the deposited data

Results flagged for a closer look

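The response to H2O2 differed between the exposure times, and so between the experiments, for 4 genes by the interaction term of edgeR's quasi-likelihood test. Each is listed here as the pre-treatment log2 fold change minus the co-treatment one. Timing cannot be told apart from the other differences between the experiments. Over all 12 libraries the difference was 3.26 for VCAM1 (adjusted p = 0.0353) and 2.01 for ITGA4 (adjusted p = 0.0385). Without pre-treatment control replicate 3 it was 3.15 for VCAM1 (adjusted p = 0.00682), 1.92 for ITGA4 (adjusted p = 0.00706), -1.64 for L1CAM (adjusted p = 0.0383) and -1.27 for NFASC (adjusted p = 0.0169). For VCAM1 and ITGA4 the higher response came with all 3 pre-treated libraries above all 9 others, whereas for L1CAM and NFASC it came with pre-treatment control replicates 1 and 2 above the other pre-treatment libraries. Groups of 3 libraries are too small for the check on single outlying samples, which was not made.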

How the results depend on the processing

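No gene called in a comparison changed direction there in any alternative. Of the 38 genes, edgeR's exact test and DESeq2 called 1 each in co-treatment. In pre-treatment with all 6 libraries (1 called) the count was 4 by the exact test, 6 by DESeq2, 3 with no filter and 2 in 1 fit over both experiments, and 0 by limma-voom, upper-quartile scaling or library size, and 0 to 14 without 1 library, 14 being without control replicate 3. Without that library (14 called) it was 9 with a fold threshold and 6 to 17 without 1 more library, 6 without control replicate 2, 8 without pre-treated replicate 1 and 9 without pre-treated replicate 2. For the difference between the exposure times, the count over 12 libraries (2) was 0 by limma-voom, upper-quartile scaling or library size and 0 to 4 without 1 library, and over 11 libraries (4) it was 9 by DESeq2, 7 by limma-voom, 7 with TMM without small RNA genes, 9 with no filter and 2 to 10 without 1 library, 10 without co-treatment control replicate 1 and 2 without co-treatment control replicate 2 or pre-treatment control replicate 2. Calls over all genes moved as well. With all 6 pre-treatment libraries there were 6, beside 0 with upper-quartile scaling, 1 with library size and 6871 without control replicate 3. Over 11 libraries 852 were higher and 1206 lower, beside 1206 and 1151 with TMM without small RNA genes. For the other settings the calls over all genes are not given here. The member counts, here and with the replicate block, are therefore no result about the members alone. The cause was not tested. The exact test could not be run for the interaction.

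The replicate numbers did not pair the samples: same-numbered deviations from the group means correlated at -0.066, -0.074 and -0.065 in co-treatment and -0.23, 0.029 and -0.28 in pre-treatment. With the replicate block the counts were 0 in pre-treatment with 6 libraries, 23 without control replicate 3, 0 for the 12-library and 7 for the 11-library difference. In pre-treatment without control replicate 3, ITGA4 was called in 18 of 18 alternatives and VCAM1 in 17 of 18, the exception being the addition of that library. With all 6 libraries ITGA4 was called in 9 of 18. Over 11 libraries both genes were called in 22 of 22 alternatives for the difference between the exposure times.

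The low levels limit VCAM1, ICAM1, ITGA6, CNTN6 and ITGB6, each near or below 1 CPM in the lower group, so that single libraries moved their values. The pre-treatment effect of the lower genes rests on 2 controls.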
